A study of Mus musculus with 4 samples.

Results

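The nuclear lamina and inner nuclear membrane genes described here are 10 genes of the 52192 with a value in the study: the lamin genes Lmna, Lmnb1 and Lmnb2, the lamin B receptor gene Lbr, the LEM-domain genes Emd, Tmpo and Lemd3, their DNA-bridging partner Banf1, and the SUN-domain genes Sun1 and Sun2. They were taken by gene symbol from the deposited table, and each of the 10 was found once and passed the filter on low values. RNA was sequenced from AML12, a mouse hepatocyte line derived from animals carrying a human TGF-alpha transgene. The 2 shCtrl libraries came from cells infected with a lentivirus for a control short hairpin RNA, and the 2 shSafb libraries from cells infected with one for a hairpin against Safb, the gene of scaffold attachment factor B, a chromatin- and RNA-binding nuclear protein. All cells were kept in 10% serum with 0.1 uM dexamethasone and ITS supplement and were collected 5 days after infection, per the labels. The labels do not give the number of hairpin sequences.

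The lamina is a mesh of intermediate filament proteins under the inner nuclear membrane. A-type lamins, made from Lmna, also occur in the nucleoplasm, while B-type lamins, made from Lmnb1 and Lmnb2, keep a lipid anchor and stay at the membrane. The lamin B receptor and the LEM-domain proteins sit in or near that membrane and bind heterochromatin, lamins or both, and SUN-domain proteins cross the lumen to join the lamina to nesprins and the cytoskeleton. The lamin B receptor and lamin A/C are known as the main tethers that hold heterochromatin at the nuclear periphery of mammalian cells.

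Every value is the authors' TPM, an abundance per gene scaled for length and to a fixed library total, so levels of different genes can be compared and the read depth is unknown. The number of genes at 1 TPM or more was 12946 to 13117 per library. Safb itself was at 23.8 and 23.3 TPM in the shCtrl libraries and at 15.8 and 15 TPM in the shSafb libraries, a 1.53-fold lower mean (limma, Benjamini-Hochberg adjusted p = 0.00411), so the knockdown was partial at the RNA level. The hepatocyte markers Ttr, Hnf4a, Krt8 and Krt18 were high in all 4 libraries, at 157 TPM or more, while Alb was lower and Trf higher in shSafb. Fibroblast, endothelial and macrophage markers were near 0, with list sums of at most 3.09 TPM, and Cdh5, Kdr and Adgre1 were listed at 0 in all libraries. The macrophage marker Csf1r was 0.239 and 0.45 TPM in shCtrl and 1.92 and 1.72 TPM in shSafb. Nothing in the labels ties each replicate to a culture of its own, and the p-values thus reflect library-to-library spread alone, which may be technical. In limma this spread comes partly from the gene itself and partly from other tested genes of like level (2 residual and 2.61 prior degrees of freedom). In RNA from whole cultures, a change in every cell and a change in the share of cells in some state cannot be told apart.

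The promoters of Lbr, Lmnb2, Sun1 and Sun2 are shown because these genes hold the largest rise, a fall of a B-type lamin, the largest fall, and the SUN gene that did not pass the test. Each line gives the 120 bases before the RefSeq start site, 5′ to 3′ on the gene's strand of GRCm38, with capitals marking matches on either strand to CCAAT, the core of the NF-Y site, or to TTTGAA or TTCGAA, the CHR element of many cell cycle promoters.
Lbr: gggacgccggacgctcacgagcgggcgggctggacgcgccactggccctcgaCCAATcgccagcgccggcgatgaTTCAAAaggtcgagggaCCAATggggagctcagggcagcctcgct
Lmnb2: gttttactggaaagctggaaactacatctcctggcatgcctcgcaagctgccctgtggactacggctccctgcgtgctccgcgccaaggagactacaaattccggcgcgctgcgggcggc
Sun1: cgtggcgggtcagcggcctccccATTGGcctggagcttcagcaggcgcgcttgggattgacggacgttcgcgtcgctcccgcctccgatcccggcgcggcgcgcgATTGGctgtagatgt
Sun2: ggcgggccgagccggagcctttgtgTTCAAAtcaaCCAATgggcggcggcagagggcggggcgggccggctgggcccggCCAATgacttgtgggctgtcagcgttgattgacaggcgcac

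These windows lie at chr1:181842402-181842521 on the minus strand for Lbr, chr10:80918246-80918365 on the minus strand for Lmnb2, chr5:139200517-139200636 on the plus strand for Sun1 and chr15:79742537-79742656 on the minus strand for Sun2. In the 250 bases before the start, Lbr has CCAAT matches that begin 68 and 28 bases before the start and a CHR match 45 bases before it, between them. Sun2 has the same kinds of match, with CHR at 95 and CCAAT at 85 and 41 bases, and Sun1 has CCAAT at 97 and 15 bases. Lmnb2 has neither motif in its 250 bases. Lmnb1 has no entry in the RefSeq promoter table and is in none of these counts. Of the 9 members with an entry, 7 have a CCAAT match at the start nearest the GENCODE 5′ end and 4 have more than 1, against 33.8% and 10.1% of all 32851 promoters of that length. A CHR match was found in 2 of the 9 (Lbr and Sun2) and in 17.1% of all promoters. A match to the E2F words TTTCCCGC, TTTCGCGC, TTTGCCGC or TTTGGCGC was found in 1 of the 9, that of Banf1 at 81 bases, and in 1.86% of all promoters. These member counts take 1 start per gene, while the shares are over every listed start. That background was not limited to expressed genes or matched for base content. At the counted starts the members had from 51.2% (Emd) to 74.4% (Lemd3) G or C bases, against a median of 52.4% over all promoters. At other RefSeq starts, Tmpo has a CHR match at 28 and an E2F match at 195 bases, Lmna a CCAAT match at 131 bases and Sun1 a CCAAT match at 209 bases. The matches printed in capitals do not overlap each other.

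The comparison of shSafb with shCtrl asked how these genes differed when Safb was reduced. Lbr, Lmnb1 and Lemd3 rose, Sun1, Lmnb2 and Emd fell, and Lmna, Tmpo, Banf1 and Sun2 did not pass the test. The changes ran from 2.13-fold higher for Lbr to 2.1-fold lower for Sun1 by the ratio of mean TPM. Of the 13111 genes tested across the table, 44.3% passed the same threshold, 21.9% higher and 22.4% lower, so 3 of 10 higher and 3 of 10 lower is near that background. The median log2 change of the 10 was -0.05 and their median size without sign was 0.49, against 0.00 and 0.30 over all tested genes. In 8 of the 10 genes the values of the groups did not overlap, against 74.7% of all tested genes. Log2 changes are of scaled TPM plus 1, are given as shSafb minus shCtrl with limma's standard error (SE), and passed where limma's Benjamini-Hochberg adjusted p over all tested genes was under 0.05.

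**Figure D1:**
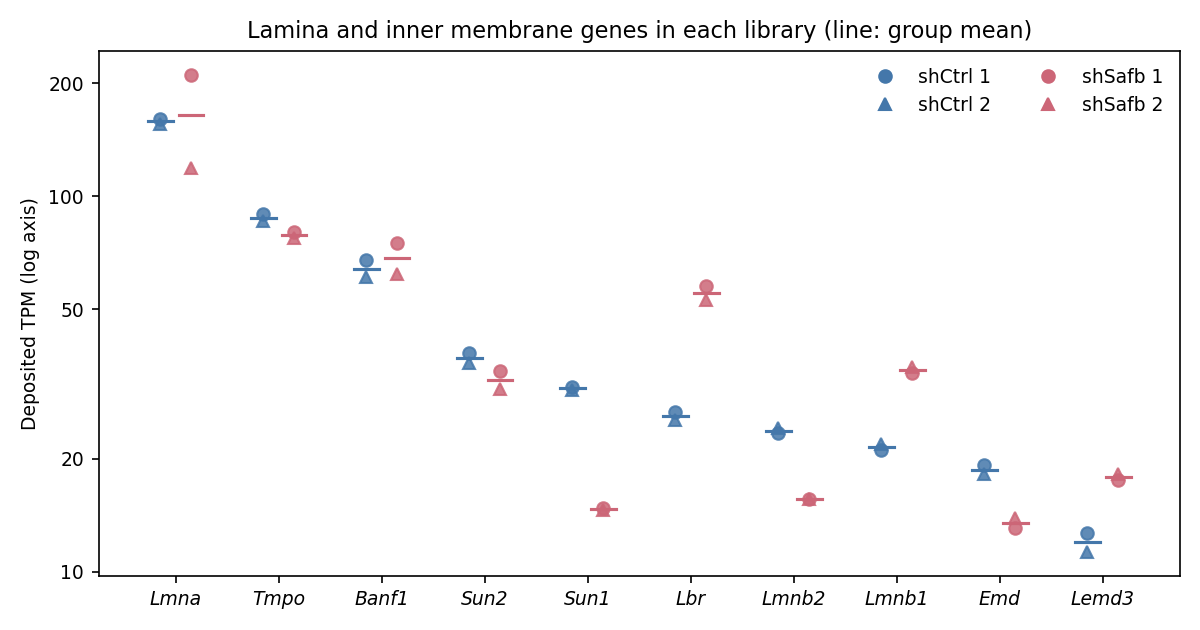
Deposited TPM (log axis) of the 10 genes in each library, with genes ordered by their shCtrl mean, circles for replicate 1, triangles for replicate 2 and lines for group means. Lbr, Lmnb1 and Lemd3 stand higher and Sun1, Lmnb2 and Emd lower in both shSafb libraries, while the shSafb values of Lmna, 211 and 119 TPM, lie on either side of both shCtrl values.

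**Figure D2:**
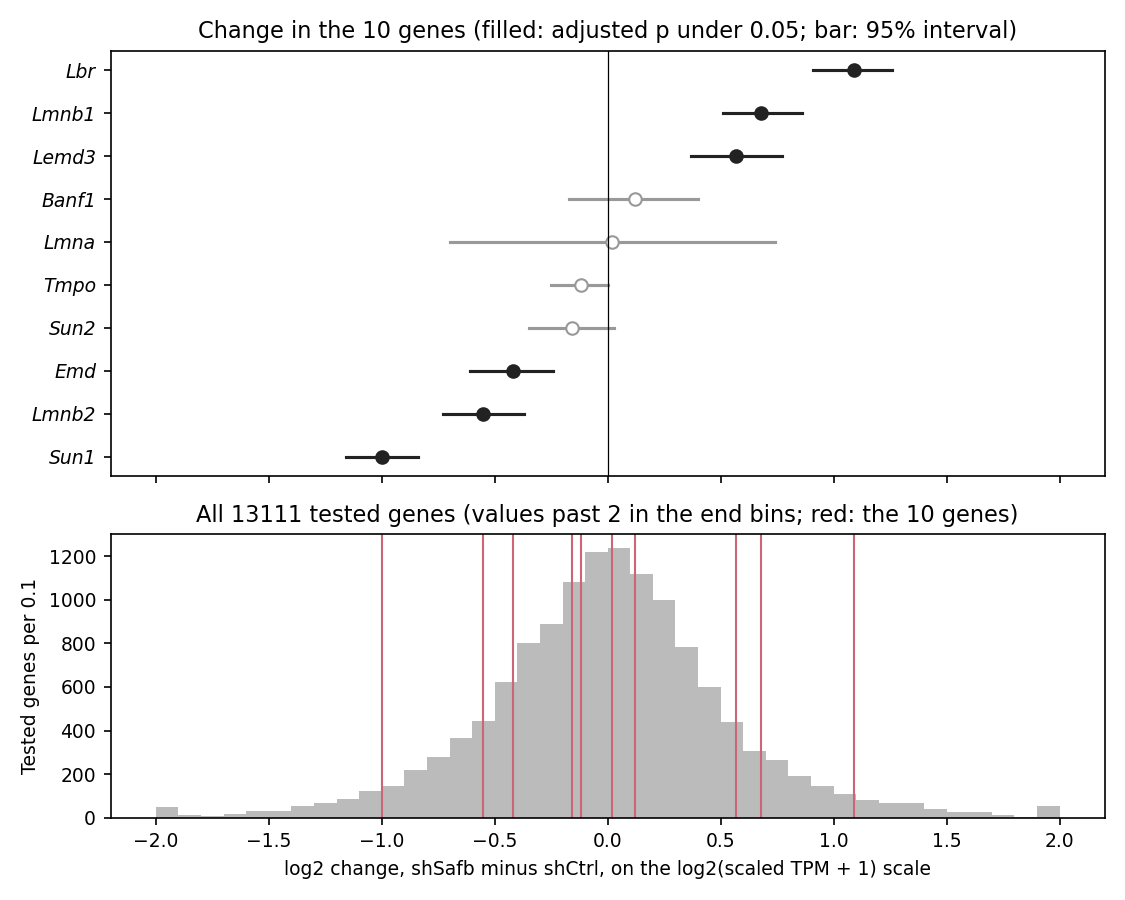
Top: log2 change of each gene, shSafb minus shCtrl, with its 95% interval from limma, filled where the adjusted p was under 0.05. Bottom: the number of tested genes per 0.1 of log2 change over all 13111 tested genes, with the 10 genes as red lines from -1.0 (Sun1) to 1.09 (Lbr).

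Among the lamins, the B-type genes moved in opposite directions. Lmnb1, which encodes lamin B1 and lies on chromosome 18 (ENSMUSG00000024590), was at 21.1 and 21.9 TPM in the shCtrl libraries and at 33.9 and 35.1 TPM in the shSafb libraries. Both shSafb values were above both shCtrl values. The mean rose 1.6-fold, from 21.5 ± 0.519 to 34.5 ± 0.838 TPM (SD, n = 2 each), with a log2 change of 0.68 ± 0.07 (SE; limma adjusted p = 0.00261). A rise at least as high was seen in 8.74% of all tested genes. Lmnb2, which encodes lamin B2, was at 23.4 and 24.1 TPM in shCtrl and at 15.6 TPM in each shSafb library. The groups did not overlap, and the shSafb libraries were nearly equal. The mean fell 1.52-fold, from 23.7 ± 0.481 to 15.6 ± 0.00824 TPM (SD, n = 2 each), and the log2 change was -0.55 ± 0.07 (SE; limma adjusted p = 0.00469). The gene (ENSMUSG00000062075) lies on chromosome 10 from 80901203 to 80918245 on the minus strand of mm10 (GRCm38), in GENCODE release M21.

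Within each library the ratio of the B-type genes is free of any scaling between libraries. This contrast was set with the opposite changes of Lmnb1 and Lmnb2 already known. Lmnb1 to Lmnb2 was 0.905 and 0.909 in the shCtrl libraries and 2.17 and 2.25 in the shSafb libraries. By TPM, Lmnb2 was thus slightly above Lmnb1 in both shCtrl libraries, and Lmnb1 was above Lmnb2 in both shSafb libraries. The difference was 1.29 in log2 ratio. In shCtrl the ratio was close to 1, and an order that close between different genes also rests on the gene lengths used for TPM. The change in ratio between the groups does not show which B-type RNA was the more abundant in shCtrl. The exact two-sided permutation p was 0.333, the smallest that 2 against 2 libraries can give. Lmnb1 made up 47.5% and 47.6% of the B-type TPM in shCtrl and 68.5% and 69.2% in shSafb. The B-type sum moved less than either gene, from 44.5 and 45.9 TPM to 49.5 and 50.7 TPM.

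Lmna, which encodes lamins A and C by alternative splicing of 1 gene, had the highest level of the 10 in both groups. It was at 161 and 156 TPM in shCtrl and at 211 and 119 TPM in shSafb. Library shSafb 1 was above and shSafb 2 below both shCtrl libraries, so the groups overlapped. The log2 change was 0.02 ± 0.27 (limma adjusted p = 0.95), with a 95% interval from -0.70 to 0.74 that takes in a rise as large as that of Lmnb1 and a fall as large as that of Lmnb2. Without shSafb replicate 1 the change was -0.38 and without shSafb replicate 2 it was 0.44, so 1 library decides its direction. Each of these fits keeps 1 shSafb library and so holds no spread between the shSafb libraries. The shSafb libraries differed 1.77-fold for Lmna, and 1.11% of the 8295 tested genes with a mean of at least 10 TPM differed at least that much between these libraries, against a median of 1.05-fold. The shCtrl libraries differed 1.03-fold. The table gives 1 value per gene, so lamin A and lamin C messages cannot be told apart.

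The Lmna share of the summed lamin TPM was 78.4% and 77.3% in shCtrl and 81% and 70.2% in shSafb. Lmna to the B-type sum was 3.63 and 3.4 in shCtrl and 4.26 and 2.35 in shSafb, with overlapping groups and an exact two-sided permutation p of 1. The share of Lmnb1 was 10.3% and 10.8% in shCtrl and 13% and 20.7% in shSafb, higher in both shSafb libraries. The share of Lmnb2 was 11.4% and 11.9% in shCtrl and 5.99% and 9.18% in shSafb, lower in both. The spread of both shares in shSafb follows from the spread of Lmna, which is in the denominator.

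**Figure D3:**
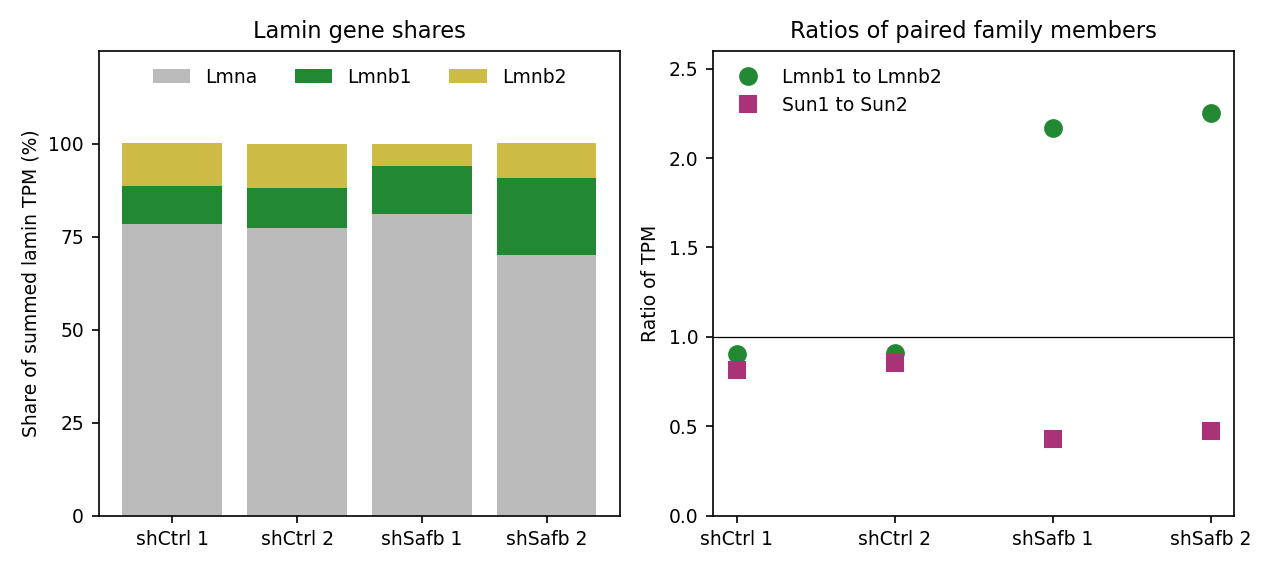
Left: share of the summed lamin TPM (percent) taken by Lmna, Lmnb1 and Lmnb2 in each library, as stacked bars. Right: ratio of TPM in each library for Lmnb1 to Lmnb2 (circles) and Sun1 to Sun2 (squares), with a line at 1. The lamin ratio is just under 1 in shCtrl and 2.17 and 2.25 in shSafb, and the SUN ratio falls from 0.815 and 0.852 to 0.431 and 0.476.

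Lbr, which encodes a membrane protein with a lamin- and HP1-binding nucleoplasmic end and a sterol reductase domain, had the largest change of the 10 on the log2 scale. It was at 26.6 and 25.3 TPM in shCtrl and at 57.7 and 52.9 TPM in shSafb. Both shSafb libraries were well above both shCtrl libraries. The log2 change was 1.09 ± 0.07 (limma adjusted p = 0.000952), and 3.04% of tested genes rose at least as much. The gene (ENSMUSG00000004880) lies on chromosome 1 from 181815335 to 181843046 on the minus strand. In the order of mean levels Lbr stood below Sun1 and Sun2 in shCtrl and above Lmnb1 and Sun2 in shSafb. Lbr to Lmna, the ratio of the genes for the main heterochromatin tethers, was 0.165 and 0.162 in shCtrl and 0.274 and 0.444 in shSafb. It was higher in both shSafb libraries, although Lmna itself went up in one of them and down in the other. This ratio, like those of Sun1 to Sun2 and Lbr to Emd, was chosen after the values were seen.

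The LEM-domain genes did not move together. Lemd3, which encodes MAN1, an inner membrane protein that binds SMAD proteins, was the lowest of the 10 in shCtrl, at 12.7 and 11.3 TPM, and was at 17.5 and 18.2 TPM in shSafb. The groups did not overlap, and the mean rose 1.49-fold (log2 change 0.57 ± 0.08, limma adjusted p = 0.00568). The gene (ENSMUSG00000048661) lies on chromosome 10 from 120923413 to 120979332 on the minus strand. Emd, which encodes emerin, was at 19.3 and 18.2 TPM in shCtrl and at 13.1 and 13.9 TPM in shSafb. Both shSafb values were below both shCtrl values, and the mean fell 1.39-fold, from 18.7 ± 0.828 to 13.5 ± 0.516 TPM (SD, n = 2 each; log2 change -0.42 ± 0.07, limma adjusted p = 0.0102). The Emd call was lost without shSafb replicate 1 (log2 change -0.38, limma adjusted p = 0.0567, in a range of 0.00862 to 0.0567 over 13 alternatives). Emd (ENSMUSG00000001964) is on the plus strand of chromosome X, from 74254687 to 74261548.

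An annotated Emd transcript shares 662 bases at 96.7% identity with Eif1, a translation initiation factor gene, and a processed pseudogene, Gm14686, lies within Emd on the same strand. Reads could be divided among them, so the Emd level is uncertain to that extent. Eif1 was at 152 and 130 TPM in shCtrl and 185 and 199 TPM in shSafb, higher where Emd was lower. As Emd fell and Lbr rose, Lbr to Emd went from 1.38 and 1.39 in shCtrl to 4.4 and 3.82 in shSafb.

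Tmpo, which encodes the LAP2 family, was the second most abundant of the 10 in both groups. It was at 89.5 and 86 TPM in shCtrl and at 80.6 and 77.5 TPM in shSafb. All shSafb values were below the shCtrl values, but the log2 change was small and did not pass (-0.12, 95% interval -0.25 to 0.00, limma adjusted p = 0.0953). Membrane-bound LAP2 beta and nucleoplasmic LAP2 alpha come from this 1 gene and cannot be told apart here. Banf1, which encodes the barrier-to-autointegration factor that joins LEM domains to DNA, was at 67.7 and 60.8 TPM in shCtrl and at 75.3 and 62.1 TPM in shSafb. The groups overlapped (log2 change 0.12, 95% interval -0.17 to 0.40, limma adjusted p = 0.422). Banf1 overlaps Eif1ad on the opposite strand, which was at 27.2 and 26 TPM in shCtrl and 41.9 and 39.5 TPM in shSafb, and the sources used here do not say whether counting used strand. Any other annotated gene that overlaps a member was at 2.17 TPM or less or had no value.

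Of the SUN genes, whose proteins form the inner segment of the bridge to the cytoskeleton, Sun1 fell and Sun2 did not pass the test. Sun1 was at 31.1 and 30.5 TPM in shCtrl and at 14.8 and 14.6 TPM in shSafb. Replicates were within 1.02-fold of each other in both groups, and the groups were far apart. The mean fell 2.1-fold, from 30.8 ± 0.4 to 14.7 ± 0.0956 TPM (SD, n = 2 each). The log2 change was -1.0 ± 0.06 (limma adjusted p = 0.000946), and 3.68% of tested genes fell at least as much. Sun1 (ENSMUSG00000036817) is on the plus strand of chromosome 5, from 139200637 to 139249840. Sun2 was at 38.2 and 35.9 TPM in shCtrl and at 34.2 and 30.7 TPM in shSafb. Its shSafb values were below its shCtrl values, with a log2 change of -0.16 that did not pass (95% interval -0.35 to 0.03, limma adjusted p = 0.142). Sun1 to Sun2 went from 0.815 and 0.852 to 0.431 and 0.476, lower in both shSafb libraries by 0.88 in log2 ratio (-0.88; exact two-sided permutation p = 0.333, the smallest possible). The sum of both genes was 69.3 and 66.4 TPM in shCtrl and 49 and 45.4 TPM in shSafb.

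In shCtrl the order of mean levels was Lmna, Tmpo, Banf1, Sun2, Sun1, Lbr, Lmnb2, Lmnb1, Emd and Lemd3, and no neighbours in that order overlapped between their libraries. In shSafb it was Lmna, Tmpo, Banf1, Lbr, Lmnb1, Sun2, Lemd3, Lmnb2, Sun1 and Emd, where Lmnb1 and Sun2 overlapped and the other neighbours did not. The 3 most abundant genes kept their order, and the lower 7 were rearranged. Over the 7932 protein-coding genes with a mean of at least 10 TPM, those nearest to Lmnb1 in log2 change from the shCtrl mean across the 4 libraries were Tmem65, Tmem115 and Myo5b (Euclidean distance 0.018, 0.028 and 0.035 on the log2 scale). For Lmnb2 they were Uap1, Adamts1 and Spg21 (0.015, 0.024 and 0.027). For Lmna they were Loxl2, Uhrf1bp1l and Stam (0.097, 0.115 and 0.12). Each was higher in shSafb 1 than in shSafb 2, which selection by distance to Lmna brings about. With 4 libraries, likeness of this kind describes these libraries only.

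Other genes of the nuclear envelope were read from 5 lists with 43 tested genes, of which 13 were higher, 8 lower and 22 did not pass, with a median log2 change of 0.06. Over all tested genes 21.9% were higher and 22.4% lower. Leaving out any 1 library reduced the higher calls in these lists, as it did over all tested genes.

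Nesprins bind SUN proteins from the outer membrane, and torsins are ATPases of the envelope lumen that work with the membrane proteins LAP1 and LULL1. Of 9 tested genes in this list 3 were higher and 4 lower, against 21.9% and 22.4% of all tested genes. The median log2 change of the 9 was -0.40. Tor1aip1, which encodes LAP1, went from 24.1 and 22.6 TPM to 7.44 and 8.53 TPM, a larger fall than any of the 10 members on the log2 scale (-1.42 ± 0.09, limma adjusted p = 0.00102). Its relative Tor1aip2, which encodes LULL1, rose from 48.3 and 43.5 TPM to 59.9 and 53.9 TPM (log2 change 0.33, limma adjusted p = 0.0252) and is named after its values were seen. Its call was lost without shCtrl replicate 1 (0.0601), shCtrl replicate 2 (0.101) or shSafb replicate 1 (0.0914), and with no filter on low values (0.055). Of the 4 nesprin genes, Syne1 fell, Syne2 and Syne3 rose and Syne4 was too low to be tested. Syne1 went from 55.3 and 54.3 TPM to 34.9 and 35.8 TPM (log2 change -0.59, limma adjusted p = 0.00193), while Syne2 went from 31.1 and 23.2 TPM to 52.9 and 49.4 TPM (0.93, limma adjusted p = 0.00652). Syne3, named after its values were seen, went from 1.76 and 1.47 TPM to 3.38 and 2.7 TPM (0.64, limma adjusted p = 0.026). Its call was lost without shCtrl replicate 1 (0.0726), shCtrl replicate 2 (0.102) or shSafb replicate 1 (0.101), and with no filter (0.0709). Tor3a, a torsin gene, fell from 10.0 and 8.53 TPM to 4.32 and 4.02 TPM (-0.97, limma adjusted p = 0.00341).

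Beside the 21.9% higher and 22.4% lower of all tested genes, the 10 other inner membrane genes had a median log2 change of 0.29. Of these 10 genes 0 were lower and 3 were higher. These were the LEM-domain gene Lemd2 (log2 change 0.25, limma adjusted p = 0.0324), Nemp2 (0.46, limma adjusted p = 0.0376) and Nrm, which encodes nurim (0.34, limma adjusted p = 0.0495), and each call was lost when any 1 of the 4 libraries was left out (limma adjusted p from 0.0648 to 0.178). All 3 calls were also lost with the replicate block (limma adjusted p = 0.0672 for Lemd2, 0.0704 for Nemp2 and 0.057 for Nrm) and with no filter on low values (0.0535, 0.0998 and 0.104). The call was lost for Lemd2 without the intensity trend (0.0539), for Nemp2 and Nrm with a filter at 0.1 TPM (0.0507 and 0.0712), and for Nrm without scaling (0.0798, and 0.0629 with small RNA and mitochondrial genes dropped too). Nemp1, at 8.09 and 6.31 TPM in shCtrl and 9.46 and 9.42 TPM in shSafb, did not pass (limma adjusted p = 0.057), and did without shCtrl replicate 1 (limma adjusted p = 0.0396). Prelamins are farnesylated, clipped and methylated, and of the 5 genes for these steps 1 was higher and 2 lower. Fnta, the alpha subunit of farnesyltransferase, fell from 101 and 104 TPM to 65.8 and 56.2 TPM (log2 change -0.72, limma adjusted p = 0.00488). Zmpste24, the protease that matures lamin A, fell from 55.6 and 54.0 TPM to 41.9 and 44.1 TPM (-0.32, limma adjusted p = 0.0105), a call lost without shSafb replicate 1 (-0.28, limma adjusted p = 0.062). Icmt, the methyltransferase, was at 17.0 and 17.2 TPM in shCtrl and at 24.9 and 42.1 TPM in shSafb, far apart between the shSafb libraries (0.91, limma adjusted p = 0.0413), and lost its call in 5 of 13 alternatives: without shCtrl replicate 1 (0.143), without shCtrl replicate 2 (0.12), with a filter at 0.1 TPM (0.0557), with no filter (0.102) and without the intensity trend (0.0622). Rce1 did not pass (-0.14, limma adjusted p = 0.349).

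Of 12 genes for envelope disassembly, sealing and membrane supply 2 were higher, 2 lower and 8 did not pass. Over all tested genes the shares were 21.9% higher and 22.4% lower. The median size of change without sign was 0.10 for this list and 0.30 over all tested genes. Vrk2, a kinase gene whose relative Vrk1 phosphorylates the Banf1 product, fell from 18.3 and 17.2 TPM to 11.1 and 10.2 TPM (log2 change -0.67, limma adjusted p = 0.00425). Chmp4b, an ESCRT-III gene, fell from 159 and 154 TPM to 121 and 116 TPM (-0.38, limma adjusted p = 0.0045). Chmp7, which recruits ESCRT-III to the re-forming envelope, rose from 52.7 and 52.8 TPM to 68.3 and 63.5 TPM (0.34, limma adjusted p = 0.0129), which did not pass without shCtrl replicate 1 (0.0589) or shSafb replicate 1 (0.0606). Ctdnep1, a phosphatase gene of lipid synthesis at the envelope, rose from 18.1 and 14.8 TPM to 21 and 24.8 TPM (0.48, limma adjusted p = 0.0334), which did not pass without shCtrl replicate 2 (0.115), without shSafb replicate 2 (0.114), with the replicate block (0.0527) or with no filter (0.0791).

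Of 7 chromatin partners of the lamina 4 were higher and 0 lower, against 21.9% and 22.4% of all tested genes. The median log2 change of the 7 was 0.24. The HP1 genes are among them. Cbx3, for HP1 gamma, rose from 34.6 and 35.9 TPM to 59.8 and 66.5 TPM (log2 change 0.85, limma adjusted p = 0.00221), and Cbx1, for HP1 beta, rose from 47.8 and 44.1 TPM to 54.8 and 52.5 TPM (0.24, limma adjusted p = 0.0245), a call lost when any 1 of the 4 libraries was left out (0.0587 to 0.111), without scaling (0.0519) or without the intensity trend (0.0508). Cbx5, for HP1 alpha, which binds the Lbr product, rose from 93.5 and 85.8 TPM to 119.6 and 123 TPM (0.46, limma adjusted p = 0.00312). Rb1, the retinoblastoma gene, rose from 9.39 and 8.45 TPM to 15.9 and 17.2 TPM (0.85, limma adjusted p = 0.00268).

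The nuclear pore, the other large protein assembly of the envelope, had 13 of 30 tested genes higher and 2 lower. Over all tested genes the shares were 21.9% and 22.4%. The median log2 change was 0.21 for the pore, 0.00 over all tested genes and -0.05 for the 10 lamina and membrane genes. No test of this difference between lists was made. Leaving out any 1 library reduced the higher calls of the pore, as it did over all tested genes. Seh1l, a scaffold nucleoporin gene, rose from 17.0 and 15.2 TPM to 36.0 and 34.3 TPM (log2 change 1.11, limma adjusted p = 0.00103), close to the rise of Lbr. Sec13 rose by 0.80 (limma adjusted p = 0.000867) and Ranbp2 by 0.66 (limma adjusted p = 0.00172). Nup153, a nuclear basket gene whose protein binds lamins and SUN1, fell from 47.1 and 43.3 TPM to 31.5 and 31.7 TPM (-0.48, limma adjusted p = 0.00388), the direction of Sun1 and Lmnb2.

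**Figure D4:**
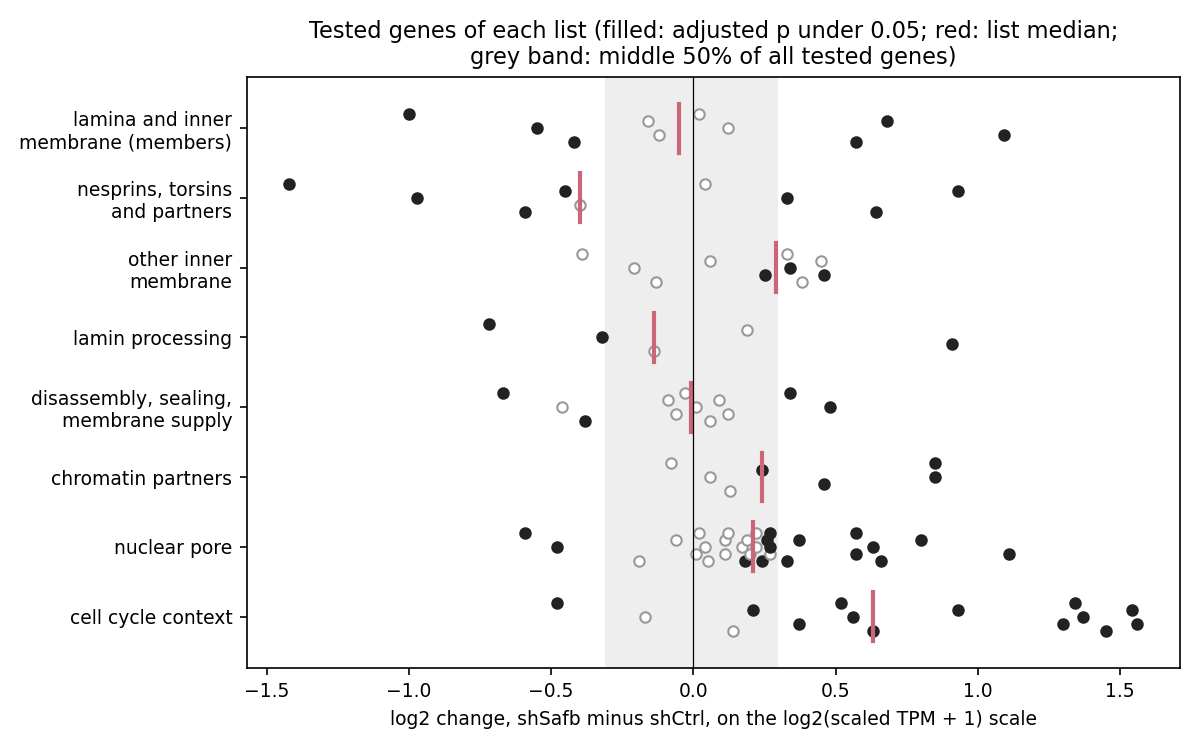
Log2 change of every tested gene in each list (one point per gene, filled where limma's adjusted p was under 0.05), with the list median in red and the middle 50% of all tested genes as a grey band. The 10 lamina and membrane genes spread to both sides around a median of -0.05, while most points of the nuclear pore and cell cycle lists lie above 0, with medians of 0.21 and 0.63.

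Cell cycle genes were mostly higher in the shSafb libraries. Of 15 such genes 12 were higher and 1 lower, against 21.9% and 22.4% of all tested genes. Their list had a median log2 change of 0.63 and a summed level of 587 to 589 TPM in shCtrl and 765 to 779 TPM in shSafb. Ccna2, the cyclin A2 gene, rose from 11.4 TPM in each shCtrl library to 34.1 and 35.6 TPM in the shSafb libraries (log2 change 1.56, limma adjusted p = 0.00062). Top2a rose from 58.6 and 49.5 TPM to 134 and 130.5 TPM (1.30, limma adjusted p = 0.000878), Ccnb1 rose by 1.45 (limma adjusted p = 0.000934) and Plk1 by 1.34 (limma adjusted p = 0.000934). Pcna, the sliding clamp gene, fell from 136 and 137 TPM to 97.2 and 94.1 TPM (-0.48, limma adjusted p = 0.00289), and is named as the 1 exception. Loss of lamin B1 is known as a mark of senescent cells, and genes of growth arrest were therefore read as well. Of 7, 1 was higher and 2 lower, against 21.9% and 22.4% of all tested genes. Cdkn2c rose by 0.59 (limma adjusted p = 0.0213), and Glb1 (-0.42, limma adjusted p = 0.00451) and Cdkn1b (-0.28, limma adjusted p = 0.0286) fell. The Cdkn2c and Cdkn1b calls were each lost without shSafb replicate 1 or 2 (limma adjusted p from 0.0552 to 0.122), without shCtrl replicate 1 for Cdkn2c (0.051) and without shCtrl replicate 2 for Cdkn1b (0.081). Both were also lost with no filter (0.0562 for Cdkn2c and 0.0541 for Cdkn1b), and that of Cdkn1b with the replicate block (0.0541) and without the intensity trend (0.0513). Cdkn2a did not pass (-0.09, limma adjusted p = 0.294). The part of the cell cycle difference in the changes of the 10 genes was not tested.

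**Figure D5:**
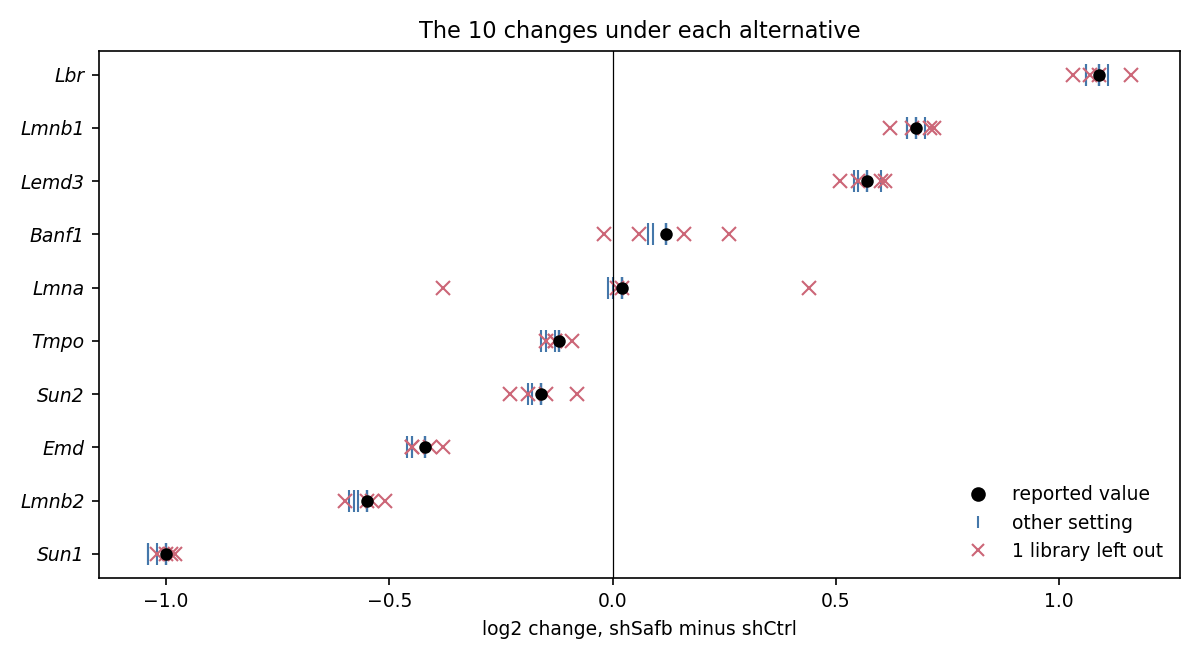
Log2 change of each gene as reported (black), under other settings (blue bars) and with 1 library left out (red crosses). Lbr, Lmnb1 and Lemd3 stay above 0 and Sun1, Lmnb2, Emd, Sun2 and Tmpo below 0 throughout, while Lmna runs from -0.38 to 0.44 and Banf1 from -0.02 to 0.26.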

How the data were processed

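RNA was measured in 4 libraries, 2 shCtrl and 2 shSafb, grouped and numbered from their titles. Values are the authors' deposited TPM. HISAT2, HTSeq, StringTie, DESeq2 and mm10 are named in the submitters' processing notes without versions or order, and, per the labels' protocols, strand-specific libraries were made after ribosomal RNA removal. The table's 52200 rows hold 52192 gene identifiers, and the 6 on more than 1 row were summed. GENCODE M21 (GRCm38) supplied positions.

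Tests covered the 13111 genes whose mean reached 1 TPM. Libraries were scaled by the median ratio to the geometric mean (factors 0.9913 to 1.031), and log2(scaled TPM + 1) was fitted with limma 3.58.1 in R 4.3.3 (group only, intensity trend, two-sided, Benjamini-Hochberg). The fit was also run on simulated data with far fewer changed genes than were called here, so that run does not test these calls. Printed means and SDs are of deposited TPM. Near-identical transcripts were sought at 95% identity over at least 200 bases.

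The members, the lists and the contrast of Lmnb1 with Lmnb2 were chosen with earlier results of these data known. Named genes are the 10 members, Safb, up to 4 tested genes with the smallest p of each list, and the 3 nearest in pattern to each lamin gene; Syne3, Tor1aip2, Pcna, Eif1, Eif1ad, Gm14686, the marker genes and the ratios outside the lamins lie outside that rule. Alternatives covered the pseudocount, filter, scaling, variance model, replicate block, each library left out and a fold of 1.5. Promoter sequences are from RefSeq on GRCm38.p6, in which 9 of the 10 members matched.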

Additional observations from a re-analysis of the deposited data

How the results depend on the processing

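Lbr, Lmnb1 and Sun1 kept their direction and call under all 13 alternatives. With a fold of at least 1.5 on the log2(scaled TPM + 1) scale also required, Lmnb2 (-0.55), Emd (-0.42) and Lemd3 (0.57) were no longer called, which left 1 of the 10 genes lower. Safb and the list genes Lemd2, Nemp2, Nrm, Tor1aip2, Zmpste24, Chmp4b, Chmp7, Ctdnep1, Cbx5, Cbx1, Nup153, Pcna, Glb1 and Cdkn1b also fell short of that fold. Lmna changed sign without scaling (-0.00) and when mitochondrial and small RNA genes were dropped and values left unscaled (-0.01), where Tmpo was called (-0.16, limma adjusted p = 0.0493). With 1 library left out, the log2 change ran from -0.38 to 0.44 for Lmna, from -0.45 to -0.38 for Emd and from -0.02 to 0.26 for Banf1. The cause of these changes was not tested, except that leaving out a library leaves 1 sample in its group, assumed to vary like the rest.

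The wider envelope genes called higher numbered 13, against 6 without a filter on low values, 5 with the fold required and 6 to 8 with 1 library left out, and those called lower numbered 8, against 5 with the fold required. For the nuclear pore the higher calls numbered 4 with the fold required and 6 to 8 with 1 library left out, and the lower calls 1 with the fold required. Over all tested genes, 1303 were higher and 1408 lower with the fold required, and 1768 to 2124 were higher with 1 library left out. With a pseudocount of 1 the difference in the log2 ratio of Lmnb1 to Lmnb2 was 1.23, and it ran from 1.26 to 1.31 with 1 library left out. That of Lmna to the B-type sum ran from -0.58 to 0.28, and that of the Lmna share from -7.65 to 3.17 percentage points.

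With the replicate number as a block, 3 of the 10 genes were called higher and 3 lower, as without it, and 2540 and 2686 of all tested genes. Among the named list genes the block ended the calls of Lemd2 (limma adjusted p = 0.0672), Nemp2 (0.0704), Nrm (0.057), Ctdnep1 (0.0527) and Cdkn1b (0.0541) and no other. Nothing in the labels says that the numbers pair the libraries, and the deviations of same-numbered libraries had a correlation of -0.0641 across 13111 genes, which are not independent. TPM keeps no counts, so no counting interval can be given.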
